A study of Mus musculus with 18 samples.

Results

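The data compared here are bulk RNA-sequencing libraries of mouse cerebral cortex at the stage labelled A6w with libraries of the same tissue at P4, postnatal day 4, with both genotype labels pooled. Members were taken by stage label: 4 A6w libraries and 4 P4 libraries, 8 of the 18 libraries in the series. Each stage held 2 libraries labelled Mcph1KO (a knockout of Mcph1, a microcephaly gene whose protein restrains condensin) and 2 wild-type (WT) libraries, all from male mice of the C57BL/6J strain. No promoter, Cre line, allele or treatment was given, and the age behind A6w was not spelled out. The other 10 libraries were cortex at E17.5 and A18w and an embryonic stem cell line, of which the cortex libraries served once as libraries that the comparison had not used. The labels did not say whether each library came from its own animal, so the p-values measure the spread between these libraries, which may be technical.

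In the days after birth the mouse cortex holds neurons that have finished migrating but still extend neurites, few mature synapses, dividing glial precursors and almost no myelin. By the adult stages synapses have formed and been pruned, receptors and ion channels have taken their adult subunit composition, oligodendrocytes have wrapped axons, and astrocytes, microglia and blood vessels have matured. RNA from a block of cortex mixes all of these cells, so in these values fewer cells of a type and less RNA per cell cannot be told apart.

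Levels are given as CPM, counts divided by library size, TMM-scaled over the 8 libraries and not divided by gene length, so levels are compared between libraries and not between genes. Values per library stand in the order labelled Mcph1KO replicates 1 and 2, then WT replicates 1 and 2. A log2 fold change is A6w over P4 from edgeR's quasi-likelihood fit with genotype as a covariate, given with its standard error (SE), and a gene was called, and is said to have risen or fallen, at an adjusted p under 0.05. Mean levels carry the standard deviation (SD) over the 4 libraries of a stage. Locations are on GRCm38.

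The tissue label was checked first. The cortical markers Tbr1, Neurod2 and Neurod6 were present in all 8 libraries, with Tbr1 at 139, 204, 140.3 and 189 CPM at A6w, against 163, 216, 168 and 174 CPM at P4. Emx1, a transcription factor of the dorsal forebrain, stood at 20.8, 15.9, 21 and 25.4 CPM at A6w and 20.2, 17, 6.34 and 23.1 CPM at P4, lowest in the P4 library WT replicate 1. That library also held the highest sum of the 18 tested markers of thalamus and hypothalamus, 820 CPM. The sums were 261 to 414 CPM in the other P4 libraries and 230 to 282 CPM at A6w. Tcf7l2, a thalamic transcription factor, was at 161 CPM in the P4 library WT replicate 1 and between 4.14 and 11 CPM in the other P4 libraries. The striatal, hippocampal and choroid plexus sums of this library were not the highest at P4. At A6w the library WT replicate 1 stood apart for hippocampal markers, with a sum of 1326 CPM against 853 to 931 CPM in the other A6w libraries and 459 to 586 CPM at P4. Counts are therefore also given without these 2 libraries where they matter.

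Mcph1 (chr8:18595131-18803189) ran against the genotype labels. It stood at 16, 16.5, 9.59 and 8.94 CPM in the A6w libraries and 14.6, 13.3, 12.2 and 10.6 CPM in the P4 libraries. All 4 libraries labelled Mcph1KO, at 13.3 to 16.5 CPM, lay above all 4 WT libraries, at 8.94 to 12.2 CPM, and within each stage the order was the same. The genotype term of the fit was not called for Mcph1 (edgeR's quasi-likelihood test, adjusted p = 0.99995). Between the stages its log2 fold change was -0.04 ± 0.16 (SE, adjusted p = 0.852). Gene-level counts do not show which exons were read, and the libraries are called labelled Mcph1KO throughout.

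The 2 stages differed across most of the expressed genome. Of 18546 genes tested, 5098 (27.5%) were called higher and 5228 (28.2%) lower at A6w, which is 55.7% together. Rises had a median log2 fold change of 1.10 and falls of -1.08, against -0.06 over all genes tested. At least 4-fold changes were found for 1082 rises and 1136 falls, and at least 16-fold changes for 216 rises and 206 falls. The 4 A6w values lay entirely above the 4 P4 values for 26.4% of all genes tested and entirely below them for 26.4%, and this held for 4602 of the called rises and 4597 of the called falls. The balance of directions rests on the scaling: with total counts alone, 3920 genes were called higher and 6921 lower (36.2% of calls higher, against 49.4%), and the median of all genes was -0.28. With upper-quartile factors 4526 were called higher and 5984 lower. Directions below are relative to the TMM scale, and the shares of 27.5% higher and 28.2% lower are the background for every count of a gene group.

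**Figure D1:**
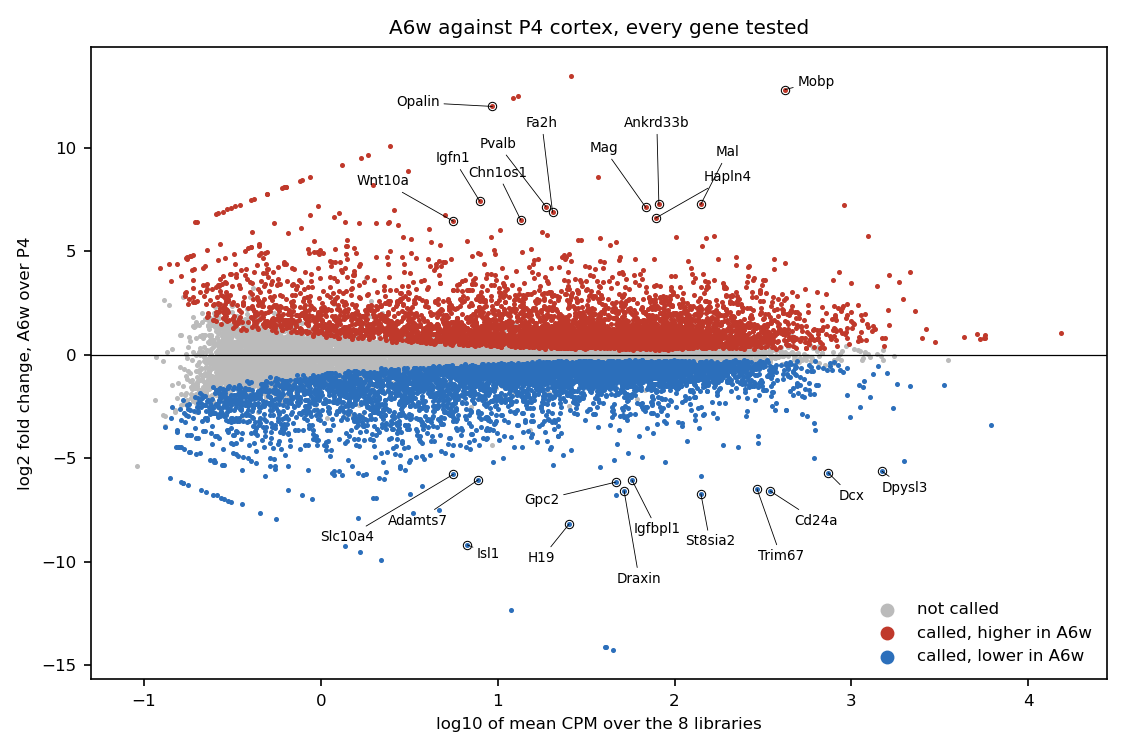
Each point is 1 of the 18546 genes tested, by the log10 of its mean CPM over the 8 libraries (horizontal axis) and its log2 fold change, A6w over P4 (vertical axis). Red points were called higher and blue points lower at A6w, grey points were not called, and circles mark genes with the largest rises and falls under the naming rule, which asks for groups that do not overlap and at least 10 CPM in the higher stage. Of the 28 called genes beyond a log2 fold change of 8, 12 had A6w and P4 values that overlapped and 8 of those were annotated as pseudogenes.

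The largest rises were led by genes of myelin. Mobp, which encodes a protein of compact myelin (chr9:120149707-120181484), stood at 705, 768, 1280.0 and 621 CPM at A6w, against 0.0998, 0, 0.111 and 0.238 CPM at P4. It was close to absent from every P4 library and high in every A6w library, with a log2 fold change of 12.81 ± 0.44 (SE, adjusted p = 8.9e-08). Opalin, an oligodendrocyte membrane protein, had 0 counts in all 4 P4 libraries and 1940 counts over the A6w libraries, at least 704-fold higher when 3 counts over the P4 libraries are taken as the floor. Mal rose by 7.27 on the log2 scale, Mag by 7.13 and Fa2h, which hydroxylates the fatty acids of myelin lipids, by 6.89. Other genes of the 12 largest rises belonged to neurons. Pvalb, the calcium buffer parvalbumin of fast-spiking interneurons (chr15:78191114-78206400), stood at 22.7, 32.7, 45.9 and 47.6 CPM at A6w and 0.233, 0, 0.738 and 0.102 CPM at P4, and Hapln4, a link protein of the matrix around axons and cell bodies (chr8:70083457-70090862), at 163, 136, 177 and 142 CPM in the A6w libraries and 1.43, 1.08, 1.44 and 2.45 CPM in the P4 libraries. Also among them were Igfn1 (7.42), Ankrd33b (7.26), the Wnt ligand gene Wnt10a (6.45) and Chn1os1 (6.51), an antisense transcript whose reads cannot be told apart from those of its sense partner, since the strand setting was not given.

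The 12 largest falls included many genes of growing neurons, and Isl1 and H19 had the lowest fold changes of all 12. Cd24a, a surface glycoprotein of newly formed neurons (chr10:43578284-43584265), stood at 9.12, 7.21, 7.45 and 5.26 CPM at A6w, against 657, 731, 724 and 644 CPM at P4. The groups lay far apart in every library, and the log2 fold change was -6.58 ± 0.19 (SE, adjusted p = 5.17e-08). Dcx, the microtubule protein doublecortin of migrating and newly settled neurons (chrX:143855842-143933311), stood at 32.5, 35.8, 23.7 and 22.2 CPM at A6w and 1319, 1548, 1614 and 1333 CPM at P4. Dpysl3, a collapsin response mediator of the growth cone, fell by 5.62 on the log2 scale to 60.4 ± 13.3 CPM at A6w, against 2924 ± 259.6 CPM at P4. St8sia2, which adds polysialic acid to the adhesion molecule NCAM, had a log2 fold change of -6.71, and the axon repellent Draxin, the glypican Gpc2, Igfbpl1, Trim67, Adamts7 and Slc10a4 had values of -6.56, -6.15, -6.05, -6.47, -6.03 and -5.77. H19, an imprinted non-coding RNA, had 0.381, 0.0424, 0 and 0.18 CPM in the A6w libraries and 43.3, 19.9, 91.7 and 46.8 CPM in the P4 libraries, a log2 fold change of -8.18. Isl1, a transcription factor of striatal and ventral forebrain neurons, had 2 counts over the A6w libraries and 1531 over the P4 libraries, lower by a ratio of 703 with a counting interval of 194 to 5810. Its P4 values were 16.5, 4.93, 24.9 and 7.59 CPM, highest in WT replicate 1. The thalamic sums of the same libraries are given above, and the part of RNA from neighbouring regions in this fall was not tested.

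**Figure D2:**
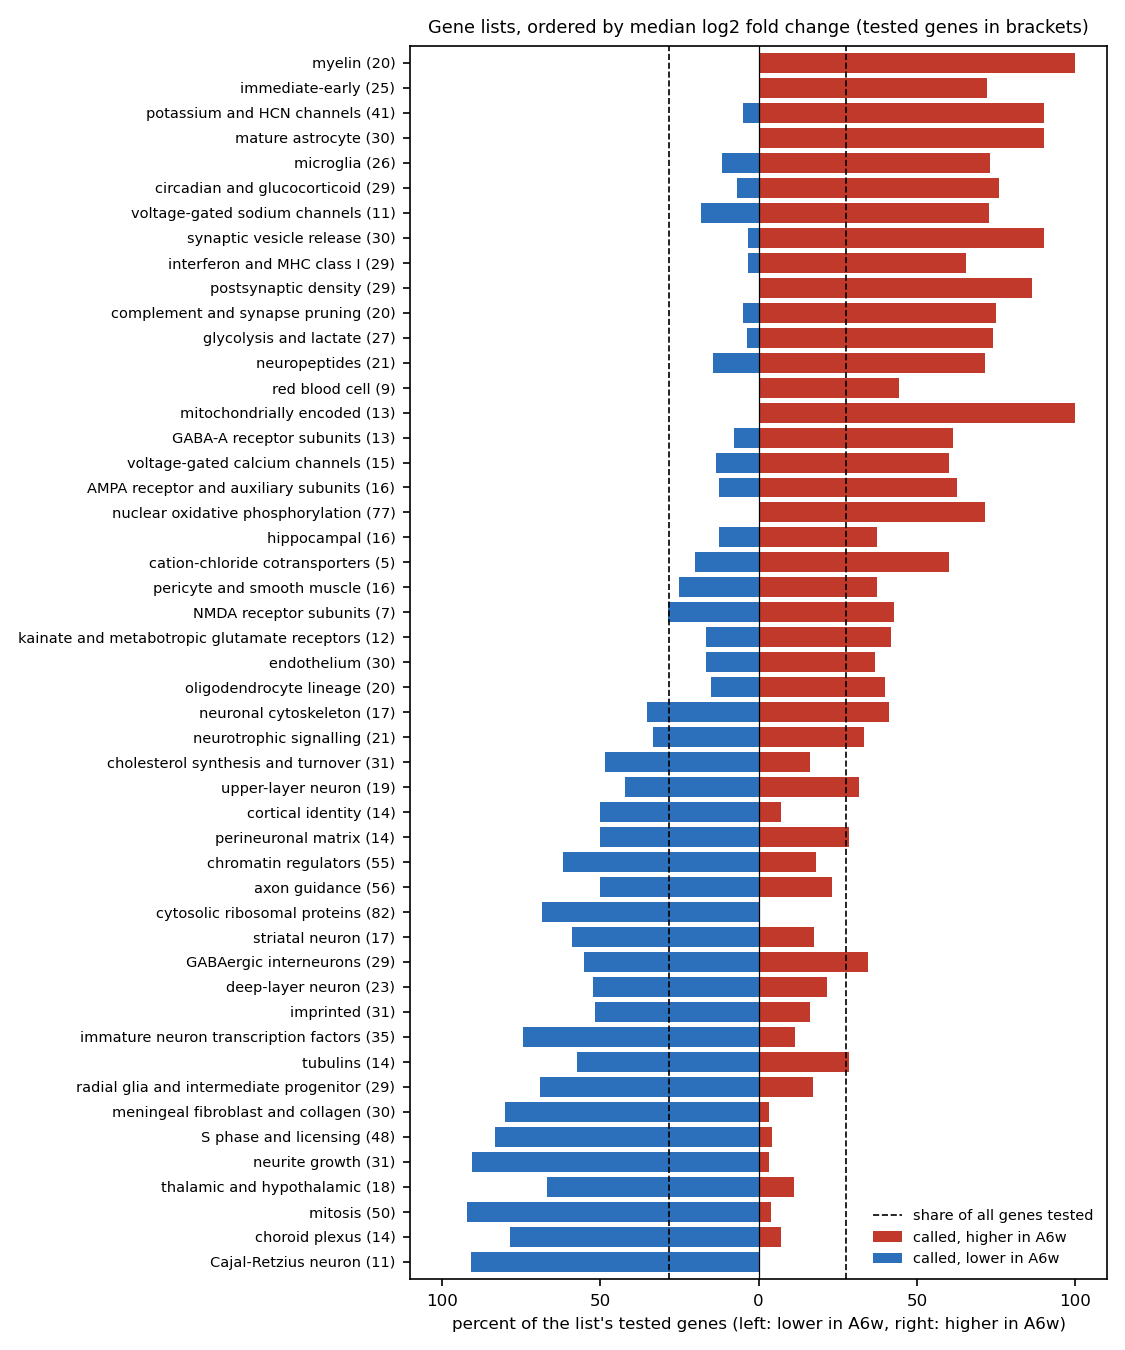
Each row is a gene list, ordered by the median log2 fold change of its tested genes, whose number stands in brackets. Red bars to the right give the percent of tested genes called higher at A6w, blue bars to the left the percent called lower, and dashed lines the share among all genes tested (27.5% higher, 28.2% lower). From the top, the first rows are the myelin, activity-dependent, potassium channel, astrocyte, microglia and circadian lists. From the bottom, they are the Cajal-Retzius, choroid plexus, mitosis, thalamic and hypothalamic, and neurite growth lists.

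Oligodendrocytes arise from dividing precursors, and wrapping begins when Myrf, the master regulator of myelin genes, is switched on. All 20 tested myelin genes rose, with a median of 4.22, and together they summed to 5684 to 9973 CPM at A6w and 198 to 258 CPM at P4. The highest sum, 9973 CPM, belonged to the A6w library WT replicate 1. In the oligodendrocyte lineage list 8 of 20 tested genes rose and 3 fell, with a median of 0.05 that turned to -0.05 with upper-quartile factors and -0.17 with total counts alone. The list had 1 fall when the A6w library labelled Mcph1KO replicate 2 or the P4 library labelled Mcph1KO replicate 1 was left out. Among the rises, Myrf stood at 30.2, 44.2, 69.4 and 45 CPM at A6w, against 2.66, 2.27, 3.02 and 3.58 CPM at P4, the transcription factor gene Nkx6-2 rose by 4.62 and Bcas1, a marker of cells that are starting to myelinate, by 3.88. Pdgfra, the growth factor receptor of precursors, fell by 0.77 on the log2 scale and remained at 72.8 ± 11.8 CPM at A6w, against 123 ± 22.2 CPM at P4. Lists of precursor markers overlap with those of vessels and meninges, where Pdgfra is also made. Hapln2, a link protein of nodes of Ranvier, was at 9.94 ± 3.91 CPM at A6w, against 0.0881 ± 0.0363 CPM at P4, a log2 fold change of 6.73.

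Genes of the presynaptic machinery nearly all rose. Of 30 tested genes of vesicle release, 27 rose and 1 fell (median 1.39), and their summed level was 19858 to 23067 CPM at A6w and 5229 to 7450 CPM at P4. Slc17a7, the vesicular glutamate transporter VGLUT1 of cortical neurons (chr7:45163949-45176142), stood at 1852, 1778, 1703 and 1998 CPM at A6w and 138, 228, 58.3 and 243 CPM at P4. The P4 value of WT replicate 1 was the lowest, and all A6w values lay far above all P4 values. The member that fell was Slc17a6, the VGLUT2 transporter used by thalamic neurons and by young cortical neurons, at 27.6, 33.3, 26.9 and 31.6 CPM in the A6w libraries and 36.4, 50.2, 87.1 and 69.4 CPM in the P4 libraries. Its highest value was in the P4 library WT replicate 1, which also had the highest sum of thalamic and hypothalamic markers. A link between them was not tested. Without the WT replicate 1 libraries of both stages, this list of vesicle release genes had 27 rises and 1 fall. Syt1, the calcium sensor of fast release, rose by 1.99 on the log2 scale and Syt2, the sensor of fast inhibitory terminals, by 4.17 (66.8 ± 10.1 CPM at A6w, against 3.79 ± 1.19 CPM at P4). Of the synaptobrevins, Vamp2 rose by 1.30 and Vamp1 by 3.66.

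Postsynaptic genes followed the same direction. Of 29 tested scaffold and kinase genes of the postsynaptic density, 25 rose and none fell (median 1.23). Camk2a, the alpha subunit of the calcium/calmodulin kinase of excitatory synapses (chr18:60925618-60988152), stood at 3043, 4195, 5024 and 3812 CPM at A6w, against 242, 305, 139 and 320.1 CPM at P4, a log2 fold change of 4.0 ± 0.29 (SE, adjusted p = 3.01e-06). Its inhibitor gene Camk2n1 rose by 3.86 and the dendrite-localised transcript Ddn by 4.03. Dlg4, the scaffold PSD-95, stood at 867, 821, 1003 and 1036 CPM at A6w and 429.9, 440.1, 257 and 468 CPM at P4, and Dlg3, the scaffold SAP102 often described as earlier in development, at 209, 213, 226 and 239.8 CPM in the A6w libraries and 78.5, 107, 74 and 118 CPM in the P4 libraries. Their log2 fold changes of 1.22 ± 0.19 and 1.23 ± 0.16 (SE) lay within each other's error.

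Glutamate receptors changed subunit by subunit. NMDA receptors combine GluN1 with GluN2 or GluN3 subunits, and a shift from GluN2B- to GluN2A-containing receptors after birth shortens their currents. Of 7 tested NMDA subunit genes, 3 rose and 2 fell. Grin2a, which encodes GluN2A (chr16:9567898-9995560), stood at 156, 263, 342 and 324 CPM at A6w, against 19.7, 22.4, 9.19 and 20.5 CPM at P4, with no overlap and a log2 fold change of 3.90 ± 0.34 (SE, adjusted p = 8.26e-06). Grin2b, which encodes GluN2B (chr6:135713233-136173511), stood at 429.6, 755, 685 and 843 CPM at A6w and 456, 722, 429.7 and 545 CPM at P4. Its groups overlapped, and its log2 fold change of 0.33 ± 0.23 (SE, adjusted p = 0.249) missed the threshold. Grin2c rose to 47.2 ± 10.5 CPM at A6w, against 1.72 ± 0.511 CPM at P4, while Grin2d and Grin3a, subunits of early and slow receptors, fell by 1.55 and 1.62 on the log2 scale, to 19.6 ± 1.22 CPM at A6w, against 58 ± 10.5 CPM at P4 and to 50.5 ± 14.2 CPM at A6w, against 153 ± 22.2 CPM at P4. The obligatory subunit gene Grin1 rose by 1.66.

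Among AMPA receptor subunits and their auxiliary proteins, 10 of 16 tested genes rose and 2 fell (median 0.67). Gria3 rose to 279 ± 45.8 CPM at A6w, against 71.2 ± 9.71 CPM at P4. The auxiliary subunits moved apart: Cacng3 rose by 2.28 and Gsg1l by 1.70, while Cacng4 fell to 35.4, 31.3, 32.8 and 36.8 CPM in the A6w libraries, against 234, 278, 273 and 245 CPM in the P4 libraries. In the kainate and metabotropic group 5 of 12 genes rose and 2 fell, but 3 rose when any of the A6w libraries labelled Mcph1KO replicate 2 or WT replicate 1, or the P4 library WT replicate 1, was left out. The kainate subunit genes Grik1 and Grik2 fell by 1.44 and 0.82, and the metabotropic receptor gene Grm8 rose by 0.97 on the log2 scale.

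GABA-A receptors, the main inhibitory receptors, exchange alpha subunits after birth, and the chloride exporter KCC2 lowers internal chloride so that they inhibit. Of 13 tested subunit genes, 8 rose and 1 fell (median 0.73). Gabra4 (chr5:71569749-71658308) stood at 133, 141, 133 and 119.5 CPM at A6w, against 19.8, 30, 25.9 and 30 CPM at P4, with a log2 fold change of 2.32 ± 0.15 (SE, adjusted p = 1.57e-06). Gabrd, a subunit outside synapses, rose by 3.54 (54.3 ± 11.6 CPM at A6w, against 4.72 ± 1.71 CPM at P4). Gabra2, often grouped with the early subunits, rose too, at 106, 52.4, 58.1 and 64.7 CPM at A6w and 21.8, 48, 42.5 and 34 CPM at P4. Gabra5, at 101, 67.1, 129 and 52.8 CPM in the A6w libraries and 116, 153, 88.2 and 134 CPM in the P4 libraries, was not called (log2 fold change -0.48 ± 0.27 (SE, adjusted p = 0.155)), and its ranges overlapped. Gabrg1 also overlapped, at 25.4 ± 2.23 CPM at A6w, against 26.4 ± 6.01 CPM at P4. Slc12a5, which encodes KCC2 (chr2:164960802-164999731), stood at 632, 788, 746 and 924 CPM at A6w, against 161, 169, 188 and 212 CPM at P4, a log2 fold change of 2.08 ± 0.13 (SE, adjusted p = 1.11e-06). The chloride importer gene Slc12a2, which encodes NKCC1, rose as well. It stood at 76.2, 95.6, 104 and 75 CPM at A6w and 56.4, 57, 72.3 and 60.7 CPM at P4 with a log2 fold change of 0.51 ± 0.14 (SE, adjusted p = 0.00899). The Slc12a2 call was lost with total counts alone (adjusted p = 0.103) and in WT libraries only (log2 fold change 0.42, adjusted p = 0.159). Among all 5 tested cotransporters 3 rose and 1 fell (Slc12a7, -1.83).

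**Figure D3:**
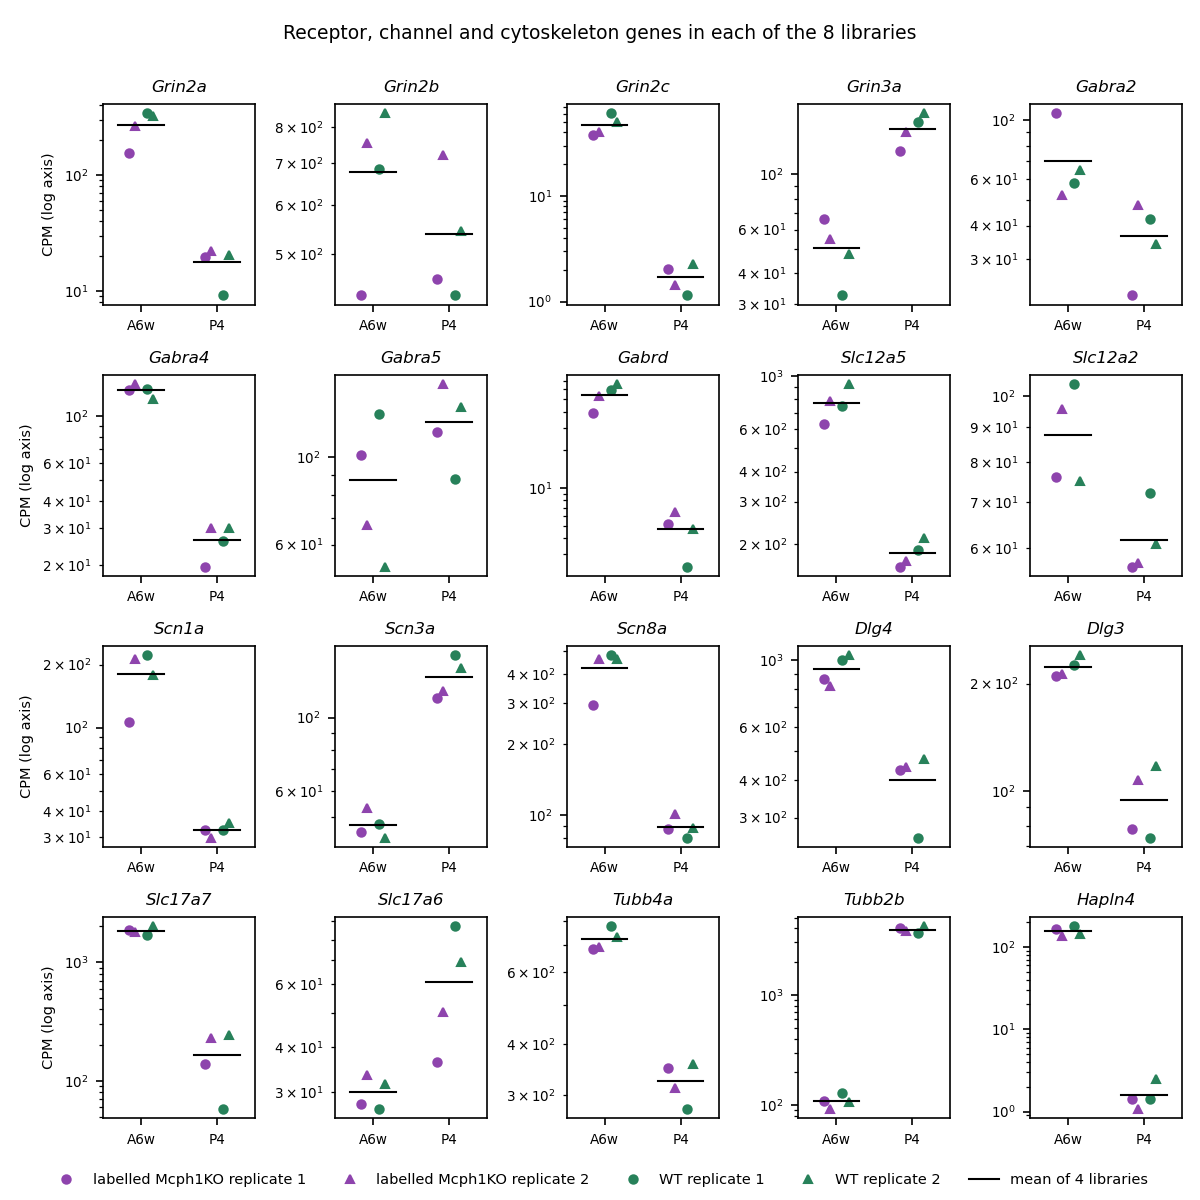
Each panel is a gene, with its CPM on a log axis in the 4 A6w libraries (left) and the 4 P4 libraries (right). Circles are replicates 1 and triangles replicates 2, purple marks libraries labelled Mcph1KO, green marks WT, and the bar is the mean of 4 libraries. Grin2a, Gabra4, Slc12a5 and Scn8a sit higher at A6w in all libraries, Grin3a, Scn3a and Tubb2b sit lower, and Grin2b and Gabra5 overlap.

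Genes of ion channels that set firing rose broadly. The sodium channel list of 11 tested genes holds Fgf12, Fgf13 and Fgf14 beside channel subunits. In it 8 genes rose and 2 fell (median 1.44). Scn1a, the channel Nav1.1 (chr2:66270778-66440840), stood at 106, 214, 221 and 179 CPM in the A6w libraries and 32.6, 29.8, 32.6 and 35 CPM in the P4 libraries, and Scn8a, the channel Nav1.6 of adult axon initial segments (chr15:100869858-101045938), at 294, 465, 479.8 and 462 CPM at A6w, against 86.8, 101, 79.9 and 87.7 CPM at P4. The A6w library labelled Mcph1KO replicate 1 had the lowest A6w value of both. Scn3a, the channel Nav1.3 of immature neurons (chr2:65457118-65567627), ran the other way at 45.1, 53.1, 47.7 and 43.3 CPM at A6w and 115, 120.2, 154 and 141 CPM at P4, a log2 fold change of -1.48 ± 0.13 (SE, adjusted p = 7.75e-06). Among beta subunit genes Scn4b rose by 5.30 and Scn2b by 4.61, while Scn3b fell by 0.79. Of 41 potassium and pacemaker channel genes 37 rose (median 1.97). Kcna1, an axonal potassium channel, rose to 91.1 ± 29.4 CPM at A6w, against 5.88 ± 2.57 CPM at P4, Kcnab2 to 522 ± 159.6 CPM at A6w, against 39.3 ± 7.89 CPM at P4 and Kcnj9 to 178 ± 18.1 CPM at A6w, against 12.7 ± 5.4 CPM at P4. The 2 falls were the pacemaker channel genes Hcn4, at 9.92, 5.68, 2.66 and 7.35 CPM in the A6w libraries and 56.5, 60.2, 51.2 and 54.6 CPM in the P4 libraries, and Hcn3, by 2.10 on the log2 scale. Among 15 calcium channel genes 9 rose, led by Cacnb4 (2.90), and 2 fell, Cacna2d2 (-1.20) and the low-threshold channel gene Cacna1h (-1.07). Another low-threshold channel gene, Cacna1i, rose by 1.52.

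Interneuron genes moved in both directions. Of 29 tested genes 10 rose and 16 fell. Among the rises, beside Pvalb, Vip rose to 45.9 ± 11.5 CPM at A6w, against 1.72 ± 1.08 CPM at P4. The peptide gene Cck rose to 366 ± 56.2 CPM at A6w, against 53.9 ± 24.2 CPM at P4. Calb1 rose to 156 ± 19.3 CPM at A6w, against 41.2 ± 8.29 CPM at P4, and was also a member of the upper-layer and hippocampal lists. The falls included transcription factors that specify interneurons before birth, with Dlx2 at 5.89, 5.64, 5.16 and 5.62 CPM at A6w, against 54, 31.2, 43.5 and 28.3 CPM at P4, Sp8 at a log2 fold change of -3.05 and Nkx2-1, also a hypothalamic marker, at -4.26. Of 21 neuropeptide and secretory genes 15 rose and 3 fell (median 1.02). Chgb rose by 2.33, Vgf by 2.13 and Pdyn by 1.29, and Nts fell to 1.77, 0.636, 2.74 and 1.08 CPM at A6w, against 41.7, 53.6, 39.8 and 17 CPM at P4.

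Markers of cortical layers and of cortical identity moved in both directions. Of 14 identity genes 1 rose, Slc17a7, and 7 fell, among them Bcl11b, which specifies subcortical projection neurons, at 73.3, 87.4, 145 and 79.9 CPM in the A6w libraries and 238, 320.5, 219 and 191 CPM in the P4 libraries, and Neurod6 at a log2 fold change of -1.35. In the upper-layer list 6 of 19 genes rose and 8 fell, with 5 falls when the A6w or the P4 library labelled Mcph1KO replicate 2 was left out. Lamp5, a membrane protein of upper-layer and neurogliaform neurons (chr2:136052239-136069917), stood at 161, 203, 194 and 239 CPM at A6w, against 3.69, 3.82, 1.51 and 6.03 CPM at P4, and Mdga1 fell by 1.59. In the deep-layer list 5 of 23 rose and 12 fell. Cplx3 of subplate neurons rose to 20.8 ± 6.26 CPM at A6w, against 3.85 ± 1.69 CPM at P4, Pcp4 of layer 5 and 6 neurons to 158 ± 13 CPM at A6w, against 39 ± 7.92 CPM at P4 and Tmem178 to 92.9 ± 17.49 CPM at A6w, against 25.5 ± 3.97 CPM at P4, while the receptor gene Ntsr1 of corticothalamic neurons fell to 11.9 ± 4.83 CPM at A6w, against 57 ± 15.9 CPM at P4 and Foxp2 to 15 ± 5.71 CPM at A6w, against 52.5 ± 15.6 CPM at P4. Foxp2 is also a thalamic gene, and its P4 value was highest in WT replicate 1. Of the markers of Cajal-Retzius neurons, the Reelin-secreting cells of the first layer that mostly die after birth, 10 of 11 fell and none rose (median -3.78), with a summed level of 96.7 to 180 CPM at A6w and 472 to 710 CPM at P4. Nhlh2 stood at 0.208, 0.0424, 1.17 and 0.18 CPM at A6w and 10.7, 8.57, 13.9 and 5.45 CPM at P4.

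Genes of neurite growth mostly fell. Of 31 tested growth genes 28 fell and 1 rose (Ncam2, by 0.89), with a median of -1.85. Their summed level was 7260 to 8952 CPM at A6w and 39634 to 44114 CPM at P4. Tubulins, the building blocks of microtubules, moved in both directions. Tubb2b, a beta tubulin of migrating and growing neurons (chr13:34126748-34130466), stood at 109.8, 93.2, 130.0 and 108 CPM in the A6w libraries and 3998, 3754, 3619 and 4153 CPM in the P4 libraries, and Tuba1a, the alpha tubulin most abundant in newborn neurons, fell to 1086 ± 168 CPM at A6w, against 11281 ± 1049 CPM at P4. Tubb5 fell by 2.59. In the other direction Tuba4a rose to 507, 552, 510.0 and 603 CPM at A6w, against 57.4, 64.5, 35.9 and 102 CPM at P4, Tubb4a to 722 ± 42 CPM at A6w, against 325 ± 36.7 CPM at P4 and Tuba8 to 9.4 ± 2.65 CPM at A6w, against 0.436 ± 0.334 CPM at P4. Over the family 4 of 14 genes rose and 8 fell, and reads of such similar paralogs may have been shared out between them by the counting.

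The neuronal cytoskeleton list was balanced, with 7 rises and 6 falls among 17 genes and a median of -0.06 that changed sign when single libraries were left out (0.12 without the A6w library labelled Mcph1KO replicate 1, 0.04 and 0.02 without the P4 libraries labelled Mcph1KO replicate 2 and WT replicate 2). Nefh, the heavy neurofilament of large axons, rose to 46.6, 65.5, 89.2 and 72 CPM at A6w, against 6.09, 5.47, 7.41 and 8.31 CPM at P4. Map1a rose to 1402 ± 276 CPM at A6w, against 288 ± 58.8 CPM at P4, whereas its early relative Map1b fell to 989.9 ± 148 CPM at A6w, against 2648 ± 414 CPM at P4 and Mapt, which encodes tau, to 503 ± 44.3 CPM at A6w, against 2052 ± 239.5 CPM at P4. Map7 rose by 2.93 and Map6 fell by 1.32. Nes, the intermediate filament of progenitors, fell to 12.9 ± 4.52 CPM at A6w, against 48.8 ± 9.94 CPM at P4.

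Genes of axon guidance fell more often than they rose, 28 against 13 of 56 tested, median -0.61. The plexin receptor gene Plxna3 stood at 17.9, 19.1, 16.4 and 21.6 CPM in the A6w libraries and 132, 132, 173 and 128 CPM in the P4 libraries. Sema6c fell by 2.53 and the semaphorin co-receptor gene Nrp2 by 2.16, while Plxnb3, a plexin of oligodendrocytes, rose by 2.84 and Sema3e by 1.72. Of 14 genes of the extracellular matrix around neurons 4 rose and 7 fell. Tnc, the matrix protein tenascin C of germinal zones and immature astrocytes (chr4:63959785-64047015), stood at 5.1, 4.28, 3.34 and 5.87 CPM at A6w, against 136, 172, 218 and 159 CPM at P4, and Vcan, the proteoglycan versican, at 18.8, 23.7, 21.8 and 16.8 CPM at A6w and 166, 208, 241 and 180.2 CPM at P4. Hapln1, a link protein of perineuronal nets, rose to 31.3 ± 5.24 CPM at A6w, against 8.56 ± 2.69 CPM at P4. Acan, which encodes aggrecan, the proteoglycan that typifies these nets, was at 2.22, 2.67, 5.56 and 4.25 CPM in the A6w libraries and 2.33, 2.77, 0.959 and 1.46 CPM in the P4 libraries. Its ranges overlapped, and it was not called (log2 fold change 0.96 ± 0.42 (SE, adjusted p = 0.0777)).

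Progenitor and cell cycle genes fell together. Of 50 tested mitosis genes 46 fell and 2 rose (median -2.94), and their summed level was 128 to 167 CPM at A6w and 524 to 787 CPM at P4. Top2a, the topoisomerase that untangles chromosomes in mitosis (chr11:98992943-99024189), stood at 1.21, 3.52, 2.38 and 1.12 CPM at A6w, against 42.3, 42.5, 75.3 and 40.1 CPM at P4. Its highest value was in the P4 library WT replicate 1, and the other 3 P4 values also lay far above all A6w values. The kinesin gene Kif2c and the condensin subunit gene Ncapg had log2 fold changes of -4.68 and -4.51. The risers were Anln (1.54), which encodes the cytokinesis protein anillin and is also expressed by oligodendrocytes, and Pttg1 (1.49), which encodes securin. Without the WT replicate 1 libraries of both stages 45 mitosis genes fell. Of 48 genes of S phase and licensing 40 fell (median -1.66). Rrm2, a subunit of the enzyme that makes deoxyribonucleotides, fell to 2.2 ± 0.54 CPM at A6w, against 27.6 ± 1.68 CPM at P4, Chaf1b by 4.17 and Uhrf1, which carries DNA methylation through replication, by 3.62. Ccne1 and E2f1 rose by 1.39 and 0.78.

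Promoters of these mitosis genes are shown because so many of them moved together. Background knowledge links such promoters to CCAAT boxes and to the cell cycle homology region, TTTGAA. RefSeq sequences (GRCm38.p6), 250 bases before to 50 after each start, were matched for 41 of the 46 genes that fell, 43 promoters in all. On either strand CCAAT was in 34 (79.1%), TTTGAA in 35 (81.4%) and both in 31 (72.1%). Among all 32851 promoters of the table these shares were 37.4%, 17.9% and 6.95%. A TTTGAA that runs into ATTGG shares a letter with it and counts as both. A match of these letters is a description and not a binding site. The promoters of Top2a, of Cdk1, the kinase that starts mitosis, and of Ccnb2, which encodes cyclin B2, follow, with both motifs in capitals on the strand they were found (ATTGG and TTCAAA are the reverse strand).
Top2a (chr11:99024140-99024439, minus strand): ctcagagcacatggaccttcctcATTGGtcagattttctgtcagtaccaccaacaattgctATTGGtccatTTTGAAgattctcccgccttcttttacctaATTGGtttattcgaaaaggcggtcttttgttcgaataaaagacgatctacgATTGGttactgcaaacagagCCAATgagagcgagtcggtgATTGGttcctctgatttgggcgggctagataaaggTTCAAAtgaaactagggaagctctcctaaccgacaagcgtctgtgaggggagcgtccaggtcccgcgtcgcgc
Cdk1 (chr10:69352863-69353162, minus strand): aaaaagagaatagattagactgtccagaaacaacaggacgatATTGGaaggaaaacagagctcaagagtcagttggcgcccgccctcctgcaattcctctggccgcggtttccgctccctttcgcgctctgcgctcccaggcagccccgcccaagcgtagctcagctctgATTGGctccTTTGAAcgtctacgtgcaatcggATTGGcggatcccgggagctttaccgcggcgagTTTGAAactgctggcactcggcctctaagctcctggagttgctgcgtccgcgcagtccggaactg
Ccnb2 (chr9:70421505-70421804, minus strand): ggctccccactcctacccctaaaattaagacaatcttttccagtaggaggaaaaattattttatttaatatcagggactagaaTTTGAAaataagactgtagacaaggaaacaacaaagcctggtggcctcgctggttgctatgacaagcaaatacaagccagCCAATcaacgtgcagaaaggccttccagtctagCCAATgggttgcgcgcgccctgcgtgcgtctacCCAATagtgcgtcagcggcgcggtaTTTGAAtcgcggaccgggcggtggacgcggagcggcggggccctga
In the promoters shown, Top2a held 6 CCAAT and 2 TTTGAA matches, and Cdk1 and Ccnb2 held 3 and 2 each.

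Radial glia and intermediate progenitor genes fell in 20 of 29 cases and rose in 5. Fabp7, the fatty acid binding protein of radial glia and immature astrocytes (chr10:57784881-57788450), stood at 21.7, 14.6, 11.1 and 22.3 CPM at A6w and 334, 331, 405 and 372 CPM at P4. Eomes, the transcription factor of intermediate progenitors, fell by 5.01. The risers Hopx (1.59) and Hey1 (1.14) are also expressed outside progenitors. In the list of immature neuron transcription factors and RNA-binding proteins 26 of 35 fell and 4 rose (median -0.93). Sox11 (chr12:27334264-27342574) stood at 24.6, 21.7, 17.6 and 17.9 CPM in the A6w libraries and 401, 480.1, 522 and 343 CPM in the P4 libraries and Sox4 at 37.1 ± 4.41 CPM at A6w, against 558 ± 119 CPM at P4. Rbfox3, the neuronal nuclear protein NeuN, rose to 305 ± 57.6 CPM at A6w, against 115 ± 23.3 CPM at P4 and the splicing regulator Rbfox1 to 254 ± 55.5 CPM at A6w, against 139 ± 12.7 CPM at P4. Trim71 rose by 2.52 from a low level, at 1.98 ± 0.211 CPM at A6w, against 0.379 ± 0.273 CPM at P4, and Igf2bp1, an RNA-binding protein of fetal tissue, fell by 5.64.

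Chromatin regulators fell more than they rose, 34 against 10 of 55 tested. Ezh2, the Polycomb methyltransferase of dividing cells (chr6:47530139-47595341), stood at 2.01, 3.69, 3.34 and 3.42 CPM at A6w, against 27.1, 28.9, 39.7 and 19.4 CPM at P4. Ezh1, its relative in resting cells, rose to 61.1, 68.6, 64.8 and 56.1 CPM at A6w, against 33.5, 33.6, 31.2 and 37 CPM at P4. Among the Polycomb chromobox genes Cbx7 rose by 2.87 and Cbx6 by 2.17. Both actin-like subunits of the BAF remodelling complex fell: Actl6a, the progenitor form, by 1.08 and Actl6b, the neuronal form, by 0.68. Lmnb1, which encodes lamin B1, fell to 7.75 ± 0.573 CPM at A6w, against 118 ± 15.6 CPM at P4, and Hdac11 rose to 189 ± 20 CPM at A6w, against 54.5 ± 11.1 CPM at P4. Imprinted genes, read from the copy of a given parent and many of them active in growth, fell in 16 of 31 cases and rose in 5. Beside H19, Magel2 fell by 4.03, and Impact, Zrsr1 and Snrpn rose by 2.62, 1.51 and 1.20.

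Astrocytes acquire glutamate uptake, gap junctions and metabolic enzymes after birth. Of 30 tested astrocyte genes 27 rose and none fell (median 1.63), with a summed level of 12326 to 15352 CPM at A6w and 2788 to 4674 CPM at P4. S100b, a calcium-binding protein of mature astrocytes that oligodendrocytes also make (chr10:76253853-76261159), stood at 110.2, 73, 105 and 77.3 CPM in the A6w libraries and 2.1, 1.12, 1.51 and 3.78 CPM in the P4 libraries, with a log2 fold change of 5.44 ± 0.34 (SE, adjusted p = 1.19e-06). Ntsr2 rose to 95.4 ± 15.3 CPM at A6w, against 6.46 ± 1.66 CPM at P4 and Gpr37l1 to 188 ± 28.5 CPM at A6w, against 13.2 ± 7.35 CPM at P4. Of the astrocyte connexins, Gjb6, which encodes connexin 30, rose to 61.8, 58.8, 67.4 and 60 CPM at A6w, against 6.25, 5.22, 11.4 and 13.6 CPM at P4, and Gja1, which encodes connexin 43, to 244, 178, 235 and 176 CPM at A6w, against 124, 90, 157 and 152 CPM at P4, a smaller step of 0.69 ± 0.18 (SE, adjusted p = 0.008). The Gja1 call was lost with total counts alone (adjusted p = 0.0521) and in WT libraries only (log2 fold change 0.40, adjusted p = 0.156).

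Genes of microglia, the resident macrophages, mostly rose. Of 26 tested genes 19 rose and 3 fell (median 1.57; 1 fell without the P4 library labelled Mcph1KO replicate 1), with a summed level of 577 to 795 CPM at A6w and 279 to 418 CPM at P4. P2ry12, a nucleotide receptor of surveying microglia (chr3:59216272-59262871), stood at 37.7, 28.5, 35.3 and 29.5 CPM in the A6w libraries and 4.22, 3.49, 4.72 and 3.81 CPM in the P4 libraries, Tmem119 rose to 24.4 ± 3.94 CPM at A6w, against 3.25 ± 0.902 CPM at P4 and Siglech to 12.4 ± 1.66 CPM at A6w, against 1.42 ± 0.32 CPM at P4. Lpl, a lipase listed for its expression in early postnatal microglia and made by other cells too, fell to 26 ± 5.85 CPM at A6w, against 74.8 ± 26.2 CPM at P4. Of 20 genes of complement and synapse removal 15 rose and 1 fell, which was Masp1 (-1.43). Mertk, a receptor for engulfment on astrocytes and microglia, rose to 46.9 ± 7.51 CPM at A6w, against 5.86 ± 2.74 CPM at P4 and the neuronal chemokine gene Cx3cl1 to 986 ± 184 CPM at A6w, against 109 ± 29.2 CPM at P4. Interferon response and MHC class I genes rose in 19 of 29 cases, with Ifit3 at 7.7, 7.21, 4.88 and 13.4 CPM at A6w, against 1.1, 0.468, 2.07 and 2.28 CPM at P4, Ifit1 at a log2 fold change of 2.61 and Irf7 at 2.44. The gene that fell was Ifitm2 (-1.45).

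Vessel genes moved in both directions. Of 30 endothelial genes 11 rose and 5 fell, while 14 were not called (median 0.23). Slco1a4, a transporter of the blood-brain barrier (chr6:141805440-141856199), stood at 71.1, 56.5, 64.5 and 40.1 CPM at A6w and 3.53, 4.64, 4.91 and 6.23 CPM at P4, and Ly6c1 rose to 42.6 ± 7.44 CPM at A6w, against 6.9 ± 3.18 CPM at P4. Kdr, the receptor for vascular growth factor VEGF that drives sprouting, fell to 21 ± 6.07 CPM at A6w, against 54 ± 17.53 CPM at P4, and Cdh5, the cadherin of endothelial junctions, to 18.1 ± 2.42 CPM at A6w, against 35.8 ± 8.61 CPM at P4. Of 16 mural cell genes 6 rose and 4 fell, with 3 rises when the A6w library labelled Mcph1KO replicate 1 or the A6w library WT replicate 1 was left out, and 2 falls without the P4 library labelled Mcph1KO replicate 1. Among contractile genes of smooth muscle, Myh11 rose by 2.43, Acta2 by 1.43 and Tagln by 1.34, and the pericyte genes Notch3 and Anpep fell by 0.90 and 1.34. Meningeal fibroblast and collagen genes fell in 24 of 30 cases and rose in 1 (median -1.61). Their sums, 794 to 1847 CPM at A6w and 1773 to 2931 CPM at P4, overlapped, while Col3a1 (chr1:45311538-45349706) stood at 8.36, 7.76, 3.67 and 8.54 CPM in the A6w libraries and 60.7, 70.8, 119 and 109 CPM in the P4 libraries without overlap.

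Summed levels of markers of tissue outside the cortical wall varied between libraries within a stage. Choroid plexus genes summed to 178 to 291 CPM at A6w and 69.4 to 867 CPM at P4, with the highest sum in the P4 library labelled Mcph1KO replicate 2. Ttr, the transthyretin secreted by choroid plexus, stood at 2.57, 12.6, 2.86 and 1.77 CPM at A6w, against 77.1, 729.6, 296 and 0.851 CPM at P4. It was called lower, but its groups overlapped and the call was lost without the P4 library WT replicate 1 (adjusted p = 0.0736) and in WT libraries only (adjusted p = 0.0527). In this list 11 of 14 genes fell and 1 rose, the riser being Enpp2 (2.06), which oligodendrocytes also express. Markers of thalamus and hypothalamus fell in 12 of 18 cases and rose in 2 (median -2.57). Leaving out the P4 library WT replicate 1, either P4 library labelled Mcph1KO or the A6w library labelled Mcph1KO replicate 1 left 1 rise. Lhx2, Calb2 and Nkx2-1 of this list were also in lists of cortical neurons, so they are not particular to tissue outside the cortex. Gbx2 had 3 counts over the A6w libraries and 432 over the P4 libraries, lower by a ratio of 132 with a counting interval of 45 to 644. Most of its P4 counts were in WT replicate 1, at 11.8 CPM. Rora, an orphan nuclear receptor, rose by 2.28. Striatal markers fell in 10 of 17 cases and rose in 3, with sums of 477 to 748 CPM at A6w and 661 to 949 CPM at P4. Without either A6w WT library, the P4 library labelled Mcph1KO replicate 1 or the P4 library WT replicate 1, 1 striatal marker rose. Six3 fell by 5.19. Hippocampal markers rose in 6 of 16 cases and fell in 2 (median 0.54). Without the A6w library WT replicate 1 the median was -0.12 and 6 fell. In that library C1ql2, a gene of dentate granule cells, was at 33.1 CPM, against 1.66 to 4.24 CPM in the other A6w libraries. Red blood cell genes rose in 4 of 9 cases, in 7 when the A6w library WT replicate 1 or the P4 library WT replicate 2 was left out and in 2 without any other library but the P4 library WT replicate 1, and summed to 481 to 860 CPM at A6w and 260 to 494 CPM at P4. Blood in the tissue was not measured otherwise, and its part and that of neighbouring tissue in the other differences were not tested. Without the WT replicate 1 libraries of both stages 4725 genes were called higher and 4333 lower over the genome.

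**Figure D4:**
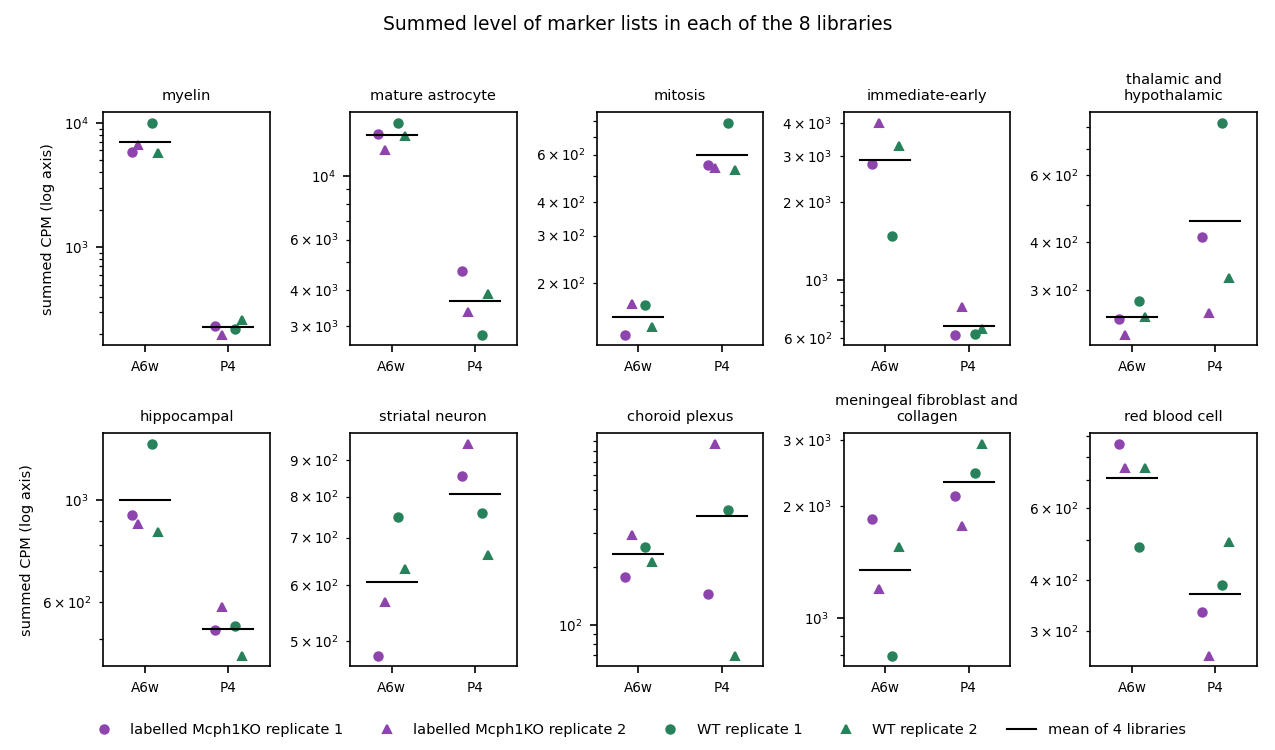
Each panel sums the CPM of a marker list in each library on a log axis, with A6w left and P4 right, symbols and colours by genotype label and replicate, and a bar at the mean of 4 libraries. The myelin, astrocyte and mitosis sums separate the stages without overlap, the thalamic sum of 820 CPM stands apart at P4 in WT replicate 1, the hippocampal sum of 1326 CPM stands apart at A6w in WT replicate 1, and the choroid plexus sums overlap.

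Genes of energy metabolism rose across compartments. All 13 protein genes of the mitochondrial genome rose (median 0.89), and none did so when the test asked for more than a log2 fold change of 1. They summed to 61217 to 79250 CPM at A6w and 33560 to 43568 CPM at P4. mt-Co1, a core subunit of cytochrome oxidase, stood at 23791, 19119, 22718 and 16661 CPM at A6w and 9073, 9513, 11525 and 9838 CPM at P4. Of 77 nuclear genes of oxidative phosphorylation 55 rose and none fell, in small steps (median 0.61). Cox8a rose to 318 ± 72 CPM at A6w, against 79.4 ± 20.4 CPM at P4 and Sdha to 348 ± 26.4 CPM at A6w, against 136 ± 13.5 CPM at P4. Glycolysis and lactate genes rose in 20 of 27 cases (median 1.13) and fell in 1. Eno2, the neuronal enolase (chr6:124760053-124769673), stood at 768, 807, 852 and 871 CPM in the A6w libraries and 105, 108, 76.8 and 115 CPM in the P4 libraries. Aldoa rose to 1495 ± 139.6 CPM at A6w, against 296 ± 32.9 CPM at P4 and the astrocytic aldolase gene Aldoc to 675 ± 99.96 CPM at A6w, against 125 ± 52.7 CPM at P4. Cytosolic ribosomal protein genes went the other way: 56 of 82 fell and none rose (median -0.61). Rplp0 stood at 223, 169, 196 and 185 CPM at A6w, against 923, 713, 767 and 582 CPM at P4, and Rpsa fell to 336 ± 44.9 CPM at A6w, against 928 ± 74.2 CPM at P4. Both kinds of ribosomal gene have processed pseudogenes that can take up their reads.

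Cholesterol is made by neurons and glia early and mainly by glia later, and the brain sheds it as 24-hydroxycholesterol. Of 31 genes 15 fell and 5 rose. Among the falls were synthetic enzymes, with Hmgcs1 at 323, 353, 296 and 330.4 CPM at A6w and 656, 846, 854 and 954 CPM at P4, Fdps at a log2 fold change of -1.65 and Sqle at -1.58. Among the rises, Cyp46a1, the 24-hydroxylase (chr12:108334381-108362234), stood at 248, 236, 202 and 246 CPM in the A6w libraries and 39.3, 36, 25.9 and 50.9 CPM in the P4 libraries, Abcg1 rose by 2.14 and Lcat by 2.16.

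Activity-dependent genes, switched on within minutes of synaptic firing, rose in 18 of 25 cases and fell in none (median 2.26). Arc, a synaptic plasticity protein (chr15:74669083-74672570), stood at 333, 497, 155 and 194 CPM at A6w, against 4.89, 7.13, 5.2 and 4.73 CPM at P4, with a log2 fold change of 5.63 ± 0.27 (SE, adjusted p = 3.13e-07). Fosb rose to 44.8, 63.7, 8.18 and 52.6 CPM at A6w, against 2.16, 2.05, 3.47 and 0.851 CPM at P4. The sums were 1480 to 4018 CPM at A6w and 617 to 788 CPM at P4, with the lowest A6w sum, 1480 CPM, in WT replicate 1. Neurotrophic signalling was balanced, 7 rises and 7 falls among 21. Bdnf, a neurotrophin induced by activity (chr2:109674700-109727007), stood at 42.6, 48.8, 30.9 and 80.1 CPM in the A6w libraries and 2.13, 5.47, 4.09 and 4.36 CPM in the P4 libraries, and Ntf3, which encodes neurotrophin 3, at 2.36, 1.06, 2.06 and 0.432 CPM at A6w, against 8.91, 13.9, 6.97 and 9.33 CPM at P4. The low-affinity receptor gene Ngfr fell by 3.32. Circadian and glucocorticoid genes rose in 22 of 29 cases and fell in 2 (median 1.5). Dbp and Hlf, output transcription factors of the clock, rose to 95.2 ± 12.8 CPM at A6w, against 9.71 ± 3.14 CPM at P4 and to 274 ± 58.2 CPM at A6w, against 23.1 ± 4.69 CPM at P4, and Bhlhe40 to 172 ± 63.2 CPM at A6w, against 23.1 ± 7.91 CPM at P4. The labels give no time of day, so its part was not tested.

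The stage difference was also read within each genotype label, which uses separate libraries. In WT 6943 of 17549 genes tested were called (39.6%), and in libraries labelled Mcph1KO 7449 of 17630 (42.3%). Of genes tested in both, 5471 were called in both with the same sign, 80.1% of the WT calls and 75.1% of the calls in libraries labelled Mcph1KO, and none was called with opposite signs. A test of the difference itself, genotype by stage, called 0 of 18546 genes (0%) in edgeR, with 983 at an unadjusted p under 0.05 and a smallest adjusted p of 0.179. DESeq2 called 26. Over all 17091 genes tested in both, called or not, 85.9% had the same sign in these separate fits. Among the 5098 rises 5097 had a positive and among the 5228 falls 5225 a negative log2 fold change in both labels. Those calls pooled the same 8 libraries, so their matching signs were largely set by the selection and are no separate evidence.

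**Figure D5:**
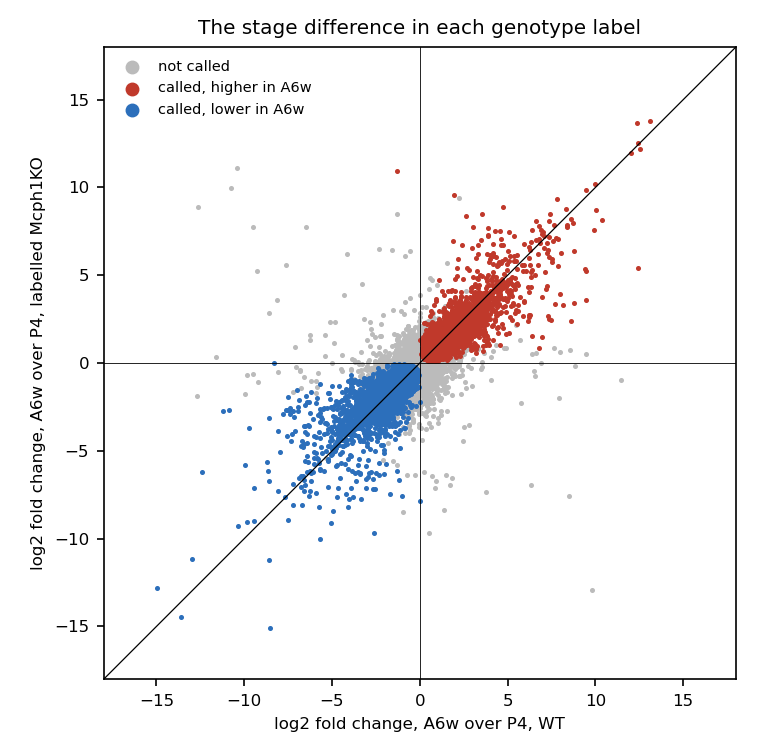
Each point is a gene tested, by its log2 fold change, A6w over P4, in WT (horizontal axis) and in libraries labelled Mcph1KO (vertical axis), with the line of equal change. Red and blue points, the genes called higher and lower with labels pooled, lie in the quadrants of matching sign, apart from 1 of the 5098 rises and 3 of the 5228 falls. The calls pooled these same libraries, so the match was largely set by the selection.

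The 8 cortex libraries of A18w and E17.5, which played no part in the comparison, allowed a look at direction alone. Of 5033 rises with a value there 4808 (95.5%) had the same sign in A18w over E17.5, and of 5048 falls 4755 (94.2%), against 14650 of 17686 (82.8%) over all genes. The whole library changed as well. At A6w 16782 to 17049 genes had at least 10 counts, and at P4 17173 to 17921, a difference of -578 in the mean (exact two-sided permutation test, p = 0.0286, the smallest that 4 against 4 allows). Mitochondrially encoded genes took 6.67% ± 0.88 of counts at A6w and 4.16% ± 0.48 at P4 (SD, n = 4 each, exact permutation p = 0.0286). The 100 most abundant genes took 19.9% ± 0.84 at A6w and 17.6% ± 0.43 at P4 (SD, n = 4 each, exact permutation p = 0.0286). Total counts ran from 24435234 to 30745603 per library over both stages. A first principal component with 69.5% of the variance separated the stages. On the second, with 6.94%, the P4 libraries WT replicate 1 and WT replicate 2 lay at the opposite ends, at -36.67 and 50.45. On the third, with 5.69%, the A6w library labelled Mcph1KO replicate 1 stood apart at 58 against -27.5 to 5.64.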

How the data were processed

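Poly-adenylated or other selection was not given in the sources used here: per the labels' protocols, total RNA from homogenised cortex went into NEBNext Ultra RNA libraries for Illumina sequencing. The authors deposited estimated counts per gene, which per the submitters' processing notes came from Salmon 1.4.0 after Trimmomatic 0.39 and FastQC on GRCm38.p6. The deposited expected counts were whole numbers already, so no further rounding was done, and Salmon shares reads among similar genes. Of 54281 gene IDs 54107 were matched to symbols and positions in GENCODE M21, and 174 were not. Total counts were 24435234 to 30745603 per library, and libraries of a group differed far beyond sampling error (the chi-square of their counts was 29.7 to 50.1 times its degrees of freedom).

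Genes were tested in R 4.3.3 with edgeR 4.0.16: filterByExpr (minimum count 10, minimum total 15), TMM factors (0.903 to 1.11), a quasi-likelihood fit of the 8 libraries with stage and genotype (5 residual degrees of freedom, prior 4.99, biological coefficient of variation 0.245), and Benjamini-Hochberg adjustment over 18546 genes with a call at adjusted p under 0.05. The SE is the log2 fold change divided by the square root of the F statistic. Genotype by stage came from a fit of 4 group means (4 residual degrees of freedom). CPM are TMM-scaled. For a stage with 0 counts a fold was bounded from below by putting 3 counts in its place, and for 1 to 3 counts the ratio has an exact 95% interval. Bound and interval cover counting error alone. The procedure was tested on simulated data with known changes in a small part of the genes, in either direction. That setting does not test the TMM scaling where most genes differ, as between these stages.

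Named genes are Mcph1, the 12 largest rises and falls among called genes without overlap and with at least 10 CPM in the higher stage (none passed over for a clone or model name), the members of 20 pairs of early and late family members, and up to 3 called rises and falls of each of 49 gene lists with at least 1 CPM, of which some are left out. Cortex and neighbouring markers Emx1, Tbr1, Neurod2 and Tcf7l2 served the tissue check, and Cdk1 and Ccnb2 were added for their promoters after values were seen. The comparison, the lists and the rules were chosen with earlier results of these data known. As alternatives, DESeq2 1.42.0 and several size factors were tried, the filter or the genotype term was dropped, other sets of libraries were fitted, the replicate number entered as a block, and each library was left out. Leaving out WT replicate 1 of both stages was chosen after seeing the data.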

Additional observations from a re-analysis of the deposited data

Results flagged for a closer look

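Of the 205 genes named above that the naming rule gave, some had a library whose CPM stood apart from the other 3 of its stage, by a gap past Dixon's critical value at the 95% level. This concerned 33 values. Chance flags about 1 in 20 groups, and 410 groups of 4 libraries were looked at. No explanation was tested. The P4 library WT replicate 1 was highest for Foxp2 (75.8 against 43.5 to 46.2), Gbx2 (11.8 against 0.36 to 2.06), Ifit1 (1.62 against 0.36 to 0.466), Ncapg (9.55 against 3.78 to 4.7), Plxna3 (173 against 128 to 132), Rrm2 (30.1 against 26.6 to 27) and Top2a (75.3 against 40.1 to 42.5). It was lowest for Actl6b (80.3 against 96.5 to 97.1), Rbfox1 (120 against 144 to 148) and Rbfox3 (80.5 against 122 to 130). The A6w library WT replicate 1 was highest for C1ql2 (33.1 against 1.66 to 4.24), Gbx2 (0.121 against 0 in each of the others), Neurod6 (113 against 76.3 to 79.5), Nhlh2 (1.17 against 0.0424 to 0.208), Sema6c (27.6 against 16.5 to 18.3) and Six3 (1.77 against 0.0721 to 0.208). It was lowest for Col3a1 (3.67 against 7.76 to 8.54) and Hcn3 (10.9 against 14 to 14.4). The P4 library labelled Mcph1KO replicate 1 was highest for Aldoc (204 against 92.5 to 104), Cbx7 (10.6 against 4.6 to 5.35), Chaf1b (10.6 against 7.41 to 7.63) and Igfn1 (0.133 against 0.0681 to 0.0738). It was lowest for Map6 (322 against 359 to 364) and Scn3b (233 against 254 to 258). The P4 library WT replicate 2 was highest for Mag (1.74 against 0.612 to 0.798) and Myh11 (3.71 against 1.59 to 1.94). It was lowest for Hapln2 (0.0341 against 0.0998 to 0.111) and Masp1 (28.9 against 46.1 to 49.4). The A6w library labelled Mcph1KO replicate 2 was highest for Ttr (12.6 against 1.77 to 2.86). It was lowest for Ly6c1 (31.5 against 45.9 to 47.1). The A6w library labelled Mcph1KO replicate 1 was lowest for Scn8a (294 against 462 to 480). The A6w library WT replicate 2 was highest for Gsg1l (121 against 94 to 96.8). The P4 library labelled Mcph1KO replicate 2 was highest for Chn1os1 (1.37 against 0 in each of the others).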

How the results depend on the processing

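Of the calls with all 8 libraries, none became a call of the opposite sign, and none changed sign, in any alternative fit in which the gene was tested. In the fit of 4 group means, 1 rise and 3 falls had the other sign in 1 genotype label. Against 5098 genes called higher and 5228 lower at A6w, the counts were 5339 and 5210 with DESeq2, 5199 and 5064 with RLE factors, 5461 and 5194 without the filter, 5244 and 5340 in a fit of all 16 cortex libraries, and 5219 and 5405 without the genotype term. Leaving out each library in turn gave 4617 to 5083 higher and 4475 to 4860 lower. A test for more than a log2 fold change of 1 called 3160 genes (1652 higher, 1508 lower). WT libraries alone gave 3537 higher and 3406 lower, with fewer libraries. The replicate numbers were not shown to pair the samples: deviations of same-numbered libraries correlated at 0.226 at P4 and 0.0864 at A6w, and at -0.0521 to 0.123 between stages. With the replicate number as a block 5109 genes were called higher and 5257 lower (10366 together), and 0 for genotype by stage. Of the 262 genes that the naming rule gave, 67 lost their call in some alternative and 20 when a single library was left out, of which the text above names 1, Ttr. The block ended the call of Hbb-bs alone among the 262. List counts of 0 to 2 genes moved by at most 1 when single libraries were left out, apart from the hippocampal falls. Genotype by stage called 303 genes without the filter, 26 with DESeq2, and 0 to 3 when each library was left out. The difference in genes with at least 10 counts was -679 to -430 when each library was left out (exact permutation p 0.0286 to 0.0571, the higher without any of the A6w libraries, where the smallest possible is 0.0286), and -716 at equal depth. The mitochondrial share differed by 2.26 to 2.88 percentage points and the share of the 100 most abundant genes by 1.99 to 2.62. The exact p of the mitochondrial share was 0.0571 without the P4 library labelled Mcph1KO replicate 1, that labelled Mcph1KO replicate 2 or WT replicate 2, and that of the 100 genes was 0.0571 without the P4 library labelled Mcph1KO replicate 1. Of the named genes that were not called, Gabrg1 and Mcph1 changed sign on the log2 scale. Gabrg1 was at 0.00601 without the filter and 0.116 without WT replicate 1 of both stages, and at -0.128 to 0.0771 when each library was left out. Mcph1 was at 0.00189 without the filter, 0.00895 without the genotype term and 0.0919 without WT replicate 1 of both stages, and at -0.0888 to 0.0733 when each library was left out.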

Other observations

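The following groups were chosen after their values were seen, and their counts stand beside the 27.5% higher and 28.2% lower of all genes. Mitochondrial ribosomal protein genes rose in 27 of 78 cases and fell in 2 (median 0.17), where their cytosolic counterparts fell in 56 of 82 and rose in none. Subunits of the V-ATPase, the proton pump of synaptic vesicles and lysosomes, rose in 14 of 18 cases and fell in none (median 0.79), and Atp6v1g2, a neuronal subunit, stood at 404 ± 24.8 CPM at A6w and 61.1 ± 10.6 CPM at P4 (SD, n = 4 each). Rab GTPases, which direct vesicle traffic, rose in 28 of 64 cases and fell in 8, with Rab26 at 25.8 ± 4.92 CPM at A6w and 2.28 ± 0.14 CPM at P4. Kinesin motors fell in 21 of 36 cases and rose in 9, and Kif5a, which carries cargo along axons, was among the risers at 3377 ± 324 CPM at A6w and 520.4 ± 77.8 CPM at P4. The kinesins counted here include those of the mitosis list above, among them Kif2c, the largest fall, and mitotic and transport kinesins were not counted apart. Genes of cilia and flagella with the Cfap name fell in 15 of 30 cases (median -1.39), zinc finger genes with the Zfp name in 125 of 369 (51 rose), RNA-binding Rbm genes in 20 of 36 (3 rose) and translation initiation factors in 20 of 54 (7 rose).

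Of the 20 pairs of family members, taken as early and late forms, 18 of the 20 late members rose, 1 fell and 1 was not called. The early members were mixed: 9 of 19 fell, 7 rose and 3 were not called. The rising early members were Gabra2, Slc12a2, Dlg3, Hapln1, Gja1, Syt1 and Vamp2, and the late member that fell was Actl6b.

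Gene length, in 5 bins of protein-coding genes from 0.204 to 4435 kb of genomic span, went with small differences in direction: 28.1% to 32.7% of a bin rose and 25.2% to 31.4% fell. Among the autosomes and the X chromosome the share that fell ran from 25.4% on chromosome 11 to 34.9% on the X chromosome.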
